A study of Mus musculus with 17 samples.

Results

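Collagen genes were taken as all symbols of the form Col, number, a, number in a table of gene counts, with at least 10 counts over the 17 libraries. Of 20621 genes, 44 had such a symbol and 43 passed the count minimum. Col10a1, with 2 counts in all, was left out. The cells were E14 mouse embryonic stem cells, a pluripotent line grown without feeder cells on gelatine, and the study compared a line with a slowly elongating RNA polymerase II (RNAPII-mut, here the mutant) with the wild type (WT). All 8 groups were kept in medium with 10% serum and 1000 U/mL LIF, a cytokine that maintains pluripotency. The day 0 groups had no further additive. The others also received 2i, a pair of inhibitors made up of 1 µM PD0325901 against MEK and 3 µM CHIR99021 against GSK3, for 1, 2 or 7 days. The mutant had 2, 3, 2 and 2 libraries of total RNA at days 0, 1, 2 and 7, and the WT had 2 at each day. The labels do not say that same-group libraries came from separate cultures, so p-values measure the spread between these libraries, which may be technical. Whether the mutant line is a single clone is not given in the sources used here, and an effect of the mutation and one of the cell line it sits in cannot be told apart.

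Collagens are secreted proteins in which alpha chains wind into a helix that depends on hydroxylated proline and on a dedicated chaperone in the endoplasmic reticulum. Type IV chains join into the sheet-like network of basement membranes, and in the early embryo this network is laid down mainly by the extraembryonic endoderm. Fibrillar chains, after proteases trim their ends, pack into the fibrils of connective tissue and are made mostly by mesenchymal cells. By chain class the 43 genes were 6 type IV chains, 11 fibrillar chains, 9 fibril-associated chains, 6 type VI chains, 4 transmembrane collagens, 2 multiplexins (Col15a1 and Col18a1), 2 type VIII chains, the anchoring fibril chain Col7a1, and Col26a1 and Col28a1.

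Several type IV genes lie head to head. In mm10, Col4a1 occupies chr8:11198423-11312826 on the minus strand and Col4a2 chr8:11312805-11449287 on the plus strand, so the annotated genes overlap by 22 bp and start 21 bp apart. Col4a6 (chrX:141165403-141474076, minus strand) and Col4a5 (chrX:141475385-141689234, plus strand) are separated by 1308 bp, and Col4a4 and Col4a3 on chromosome 1 by 71 bp. Of the fibrillar genes, Col3a1 (chr1:45311538-45349706, plus strand) and Col5a2 (chr1:45374321-45503282, minus strand) lie 24614 bp apart, while Col1a1 (chr11:94936224-94953042) and Col1a2 (chr6:4504814-4541544) are on different chromosomes. The RefSeq promoter windows (GRCm38.p6, 250 bases before to 50 after each start, 300 bases) of the main basement membrane pair and of a pair of fibrillar chains are shown because the pairs behaved differently across the libraries. Of the 43 genes 34 had such a window and 9, Col1a1 among them, did not. In the first pair, Col4a1 at chr8:11312777-11313076 on the minus strand and Col4a2 at chr8:11312555-11312854 on the plus strand, capitals mark the 78 bases (11312777 to 11312854) that both windows cover, read on opposite strands:
Col4a1: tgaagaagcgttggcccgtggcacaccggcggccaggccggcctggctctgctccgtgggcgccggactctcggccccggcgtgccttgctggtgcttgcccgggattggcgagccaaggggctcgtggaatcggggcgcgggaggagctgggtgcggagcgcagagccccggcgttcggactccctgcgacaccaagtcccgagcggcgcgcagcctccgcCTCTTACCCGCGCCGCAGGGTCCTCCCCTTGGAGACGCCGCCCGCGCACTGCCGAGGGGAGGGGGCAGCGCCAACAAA
Col4a2: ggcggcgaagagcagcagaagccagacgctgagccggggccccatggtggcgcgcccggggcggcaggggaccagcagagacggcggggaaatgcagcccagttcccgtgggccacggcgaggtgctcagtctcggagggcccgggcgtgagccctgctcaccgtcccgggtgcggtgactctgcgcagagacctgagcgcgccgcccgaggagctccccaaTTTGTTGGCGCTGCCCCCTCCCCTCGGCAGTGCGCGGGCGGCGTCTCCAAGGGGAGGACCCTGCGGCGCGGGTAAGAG

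In the second pair, Col1a2 at chr6:4505368-4505667 and Col3a1 at chr1:45311288-45311587, both on the plus strand, capitals mark matches on either strand to the TATAAA motif of TATA boxes, the CCAAT motif and the GGGCGG motif of GC boxes:
Col1a2: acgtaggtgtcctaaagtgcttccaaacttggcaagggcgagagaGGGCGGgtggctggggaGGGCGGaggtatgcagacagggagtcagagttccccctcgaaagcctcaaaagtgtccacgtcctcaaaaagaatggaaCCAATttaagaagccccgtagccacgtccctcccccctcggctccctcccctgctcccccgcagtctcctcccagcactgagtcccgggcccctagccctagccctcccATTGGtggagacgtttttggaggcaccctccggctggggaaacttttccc
Col3a1: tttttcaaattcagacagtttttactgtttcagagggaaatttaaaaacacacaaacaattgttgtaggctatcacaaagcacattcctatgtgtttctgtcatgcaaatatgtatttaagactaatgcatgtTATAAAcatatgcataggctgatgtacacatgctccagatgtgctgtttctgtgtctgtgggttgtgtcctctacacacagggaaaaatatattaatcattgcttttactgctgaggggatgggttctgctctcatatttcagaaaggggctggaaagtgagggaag

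These motifs were searched on both strands and do not contain each other. TATAAA occurs in 13.6% of the 32851 promoter windows of the table, CCAAT in 37.4% and GGGCGG in 35.7%. The Col4a1 window holds CCAAT 1 time and GGGCGG 1 time, and the Col4a2 window holds CCAAT 1 time and GGGCGG 3 times. The GGGCGG of Col4a1 lies in the shared stretch and is the same stretch of bases as 1 of the 3 of Col4a2. The Col1a2 window holds CCAAT 2 times and GGGCGG 2 times, and the Col3a1 window holds TATAAA 1 time. The Col4a1 and Col4a2 windows are 74.0% and 73.7% G or C, against 61.0% for Col1a2, 37.7% for Col3a1 and a median of 52.7% over all windows. A match describes letters in these windows and is not evidence of a bound factor.

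Libraries held 47350441 to 56138844 counts. All kept the pluripotency genes high: the summed level of Pou5f1, Sox2, Nanog, Zfp42, Esrrb, Klf4 and Tfcp2l1 was 4593 to 7251 CPM (counts per 1000000 of the TMM-scaled library size, a library total corrected for a few genes taking many of the counts) in mutant and 3389 to 6762 CPM in WT libraries. The WT libraries of each day did not resemble each other in markers of other cell types. Smooth muscle and stromal genes (10 genes, Acta2 and Tagln among them) summed to 35.8 to 61.9 CPM in the mutant, against 607.7, 1000.0, 142 and 40.9 CPM in the WT libraries numbered replicate 1 at days 0, 1, 2 and 7 and 48.5 to 64.9 CPM in those numbered replicate 2. Acta2 and Tagln made up most of the WT replicate 1 sums of days 0, 1 and 2. Thy1 went the other way, at 2.00 to 4.96 CPM in WT replicate 1 and 8.05 to 23.3 CPM in WT replicate 2. Pdgfrb was also lower in WT replicate 1 at days 1, 2 and 7. Primitive endoderm genes (14 genes, Gata6 and Sox17 among them) summed to 13.4 to 21.1 CPM in the mutant, against 15.0 to 26.1 CPM in WT replicate 1 and 79.0 to 234 CPM in WT replicate 2. Of those 14 genes Afp was at or near 0, with at most 0.0670 CPM in any library. Mesoderm genes (8 genes) summed to 9.97 to 54.3 CPM in the mutant, 20.3 to 165 CPM in WT replicate 1 and 11.3 to 18.9 CPM in WT replicate 2. T made up most of the WT replicate 1 sums, and Mesp1 had at most 0.321 CPM in any library. Tbx6 was higher in the mutant at day 0, at 2.37 and 2.88 CPM against 0.335 and 0.727 CPM in the WT. Trophoblast genes (8 genes) summed to 7.75 to 46.9 CPM in the mutant, against 105, 184, 44.2 and 81.2 CPM in WT replicate 1 at days 0, 1, 2 and 7 and 23.8 to 54.3 CPM in WT replicate 2. Krt19 made up most of the WT replicate 1 sums of days 0, 1 and 2, while Elf5 and Plac1 had at most 0.218 and 0.410 CPM in any library. Endothelial genes (5 genes) overlapped more, at 52.0 to 134 CPM in the mutant and 43.8 to 170.2 CPM in the WT, as did cartilage genes (5 genes), at 3.94 to 10.0 CPM in the mutant and 4.85 to 19.1 CPM in the WT. Pecam1 made up most of the endothelial sum in every library, while Cdh5 and Erg had at most 1.15 and 0.634 CPM. The endothelial sum is thus mainly a value of Pecam1. In bulk RNA, fewer cells of a type and less RNA per cell cannot be told apart, and the part of these cells in the collagen values was not tested. Because the spread within the WT is wide, collagen values are given per library.

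Per kilobase of exon, the most abundant collagen message was Col18a1 in 14 of the 17 libraries and Col4a1 in 3, which were WT replicate 2 of days 1, 2 and 7. Col18a1 is neither a network nor a fibril chain: its product is a basement membrane collagen that carries heparan sulphate and is the source of endostatin. It took 41.6 to 84.1% of all collagen CPM per kilobase of exon in mutant and 16.0 to 60.5% in WT libraries. Summed over the 43 genes, collagen CPM was 285 to 829 in mutant and 324 to 1094 in WT libraries. The median over the 17 libraries was 46.3 CPM per kilobase for Col18a1, 9.60 for Col9a2, 4.79 for Col4a1, 3.04 for Col4a2 and 2.84 for Col5a1. At the other end, 5 of the 43 genes were too low to be tested: Col4a3, Col4a4, Col19a1, Col24a1 and Col28a1. None of these 5 exceeded 0.435 CPM in any library. That left 38 collagen genes among 15365 genes tested.

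**Figure D1:**
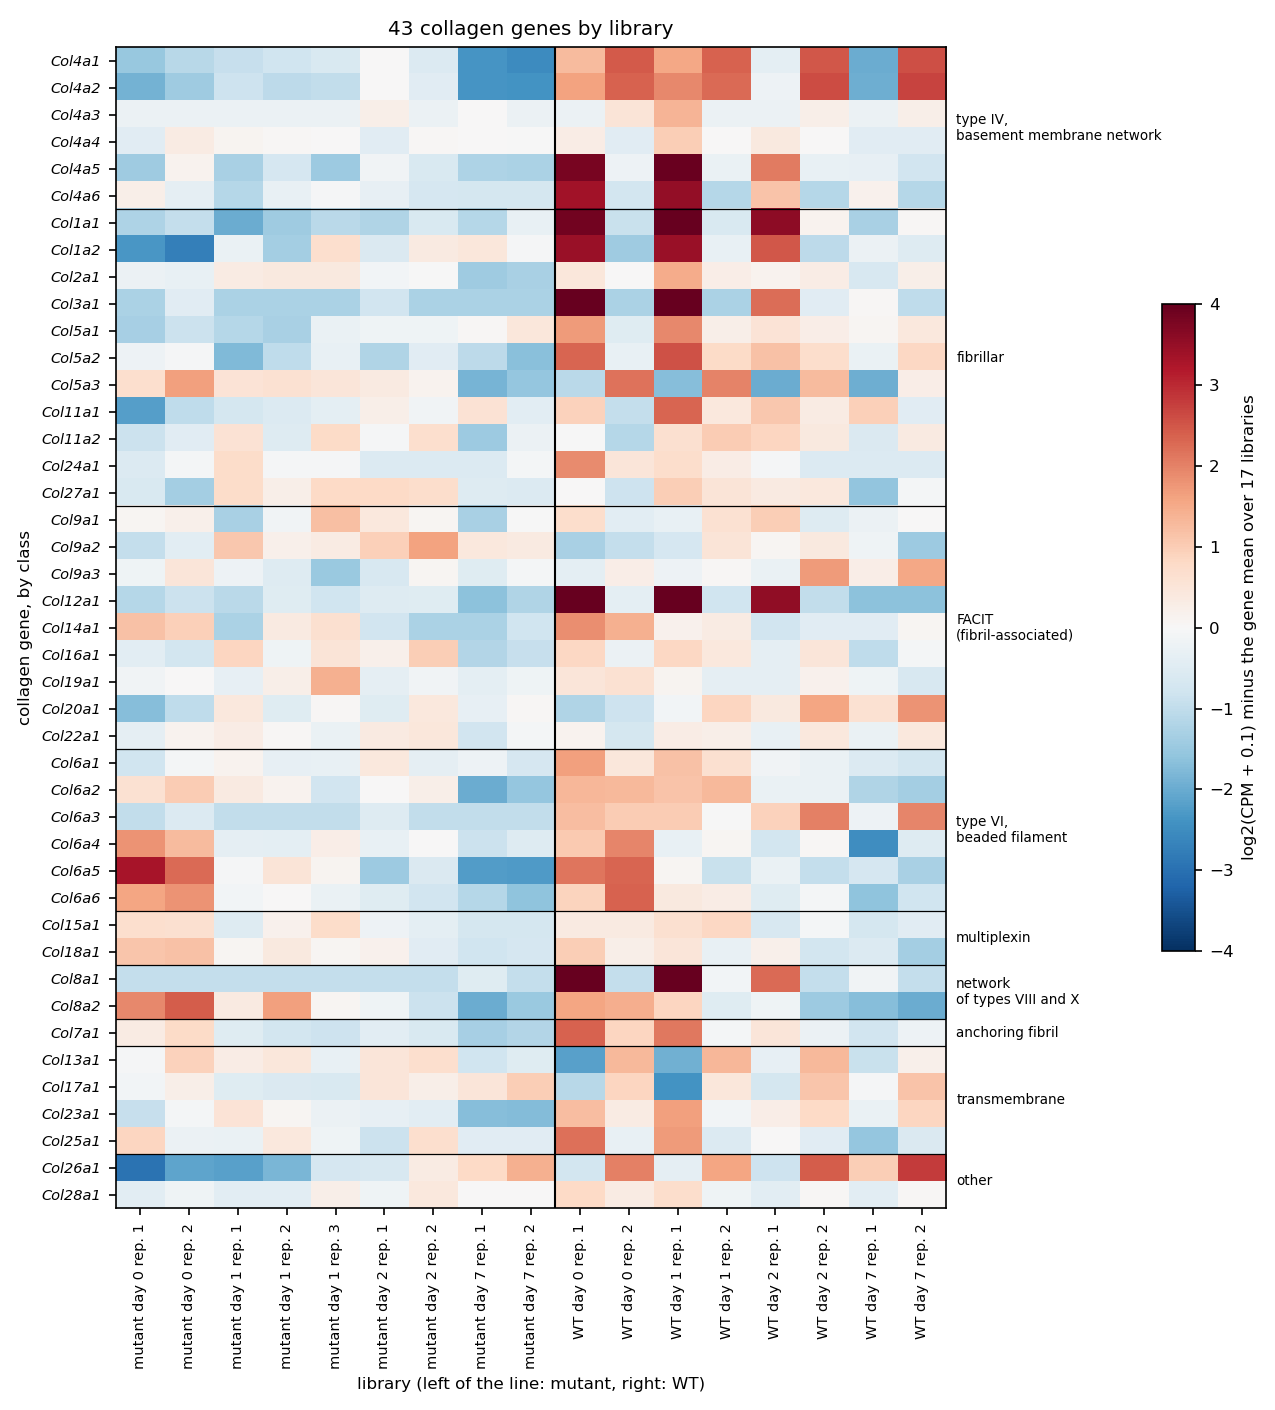
Each column is a library, mutant left of WT, and each row a collagen gene grouped by class. Colour is log2(CPM + 0.1) minus the mean of that gene over the 17 libraries, in log2 units. The fibrillar chains Col1a1, Col1a2 and Col3a1 are high in WT replicate 1 of days 0, 1 and 2, and Col4a1 and Col4a2 in WT replicate 2 of every day and WT replicate 1 of days 0 and 1.

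The basement membrane pair Col4a1 and Col4a2, which together form the common type IV helix, was lower in the mutant. Col4a1 had 18.1 and 24.2 CPM in the mutant at day 0, 27.4, 30.0 and 34.3 CPM at day 1, 52.7 and 35.7 CPM at day 2, and 10.1 and 9.08 CPM at day 7. In WT replicate 1 it had 126, 154, 39.3 and 13.1 CPM at days 0, 1, 2 and 7, and in WT replicate 2 it had 285, 269.5, 294 and 308 CPM. At days 0, 1 and 7 both WT libraries were above all mutant libraries of that day, and at day 2 the WT replicate 1 library lay between the mutant values. WT replicate 1 was lower at day 2 and at day 7 than at days 0 and 1, while WT replicate 2 stayed within 269.5 to 308 CPM. Averaged over the 4 days, Col4a1 was 8.07-fold lower in the mutant (log2 fold change −3.01 ± 0.52 SE, adjusted p = 0.00363, edgeR quasi-likelihood test). This fit treats the WT libraries of different days as independent, although those of the same number resembled each other across days. The SE and p-values of all average differences may therefore be too small. By single days the log2 difference was −3.28, −2.79, −1.91 and −4.07 at days 0, 1, 2 and 7, with edgeR adjusted p-values of 0.212, 0.188, 0.891 and 0.244.

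Col4a2, the partner chain, had a similar order of libraries. It had 7.31 and 10.3 CPM in the mutant at day 0, 15.6, 13.2 and 13.7 CPM at day 1, 27.8 and 20.1 CPM at day 2, and 5.32 and 5.16 CPM at day 7. The WT had 84.5, 104, 23.8 and 6.95 CPM in replicate 1 at those days and 143, 133, 169.5 and 178 CPM in replicate 2. As for Col4a1, only the day 2 groups overlapped. The average difference was −3.23 ± 0.52 (SE) on the log2 scale, 9.36-fold lower in the mutant (edgeR adjusted p = 0.00236). Both calls held without any single library, with adjusted p of at most 0.0202 for Col4a1 and 0.0146 for Col4a2. Without WT replicate 2 of day 7 the differences shrank to −2.11 and −2.29 (edgeR adjusted p = 0.00450 and 0.00193). Without WT replicate 1 of days 0 and 1 together the differences were −3.22 and −3.35. That omission removes the lower WT library of each of those days, so it could not put the differences to a test. The higher WT replicate 2 series was not left out as a whole. Per kilobase of exon the level of Col4a1 was 1.56 to 2.21 times that of Col4a2 in mutant and 1.31 to 1.80 times in WT libraries. The counting tool and its strand setting are not given in the sources used here, so reads from the 22 bp shared by both genes could not be assigned with certainty.

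Col4a5 and Col4a6, chains of basement membranes in kidney, skin and smooth muscle, were high in WT replicate 1 of days 0 to 2 and low in WT replicate 2, where the main pair was highest. Col4a5 had 0.117 to 0.547 CPM in mutant libraries at all days. WT replicate 1 had 7.97, 8.97, 2.39 and 0.370 CPM at days 0, 1, 2 and 7, whereas WT replicate 2 stayed at 0.244 to 0.406 CPM. Col4a5 was thus high in the 3 WT libraries with high stromal marker sums and not in those with high primitive endoderm marker sums. Averaged over days it was 7.16-fold lower in the mutant (log2 fold change −2.84 ± 0.70, edgeR adjusted p = 0.0205). That call was lost, at an adjusted p of up to 0.0645, without WT replicate 1 of day 0 or of day 1, or without mutant replicate 1 of days 0, 2 or 7 or replicate 2 of days 2 or 7. Col4a5 was 3.99-fold lower in the mutant without WT replicate 1 of day 0, and its log2 difference was −1.95 without that of day 1 and −1.11 without both (edgeR adjusted p = 0.161). With the replicate number as a block the call was also lost (−2.25, edgeR adjusted p = 0.0671), but it was kept with a term that pairs the WT libraries across days (−2.17, edgeR adjusted p = 0.00265). That term takes the difference between the WT series out of the error, so its p-values for genotype can be too small. Col4a6 had 0 to 0.161 CPM in the mutant. WT replicate 1 had 2.18, 2.46, 0.391 and 0.148 CPM of Col4a6, and WT replicate 2 had 0.0338 CPM at day 0 and 0 at the other days. Its average difference of −2.50 ± 1.10 did not pass the test (edgeR adjusted p = 0.158). Over the 17 libraries Pearson's r of log2(CPM + 0.1) was 0.993 between Col4a1 and Col4a2 and 0.894 between Col4a5 and Col4a6. These values describe libraries that share groups and are given with no test. Col4a3 and Col4a4, chains best known from kidney and lung, had 3 and 16 counts in the 9 mutant libraries and 20 and 22 counts in the 8 WT libraries. Of the 6 type IV chains 4 were tested. Of these 3 were called lower in the mutant on average and none higher.

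**Figure D2:**
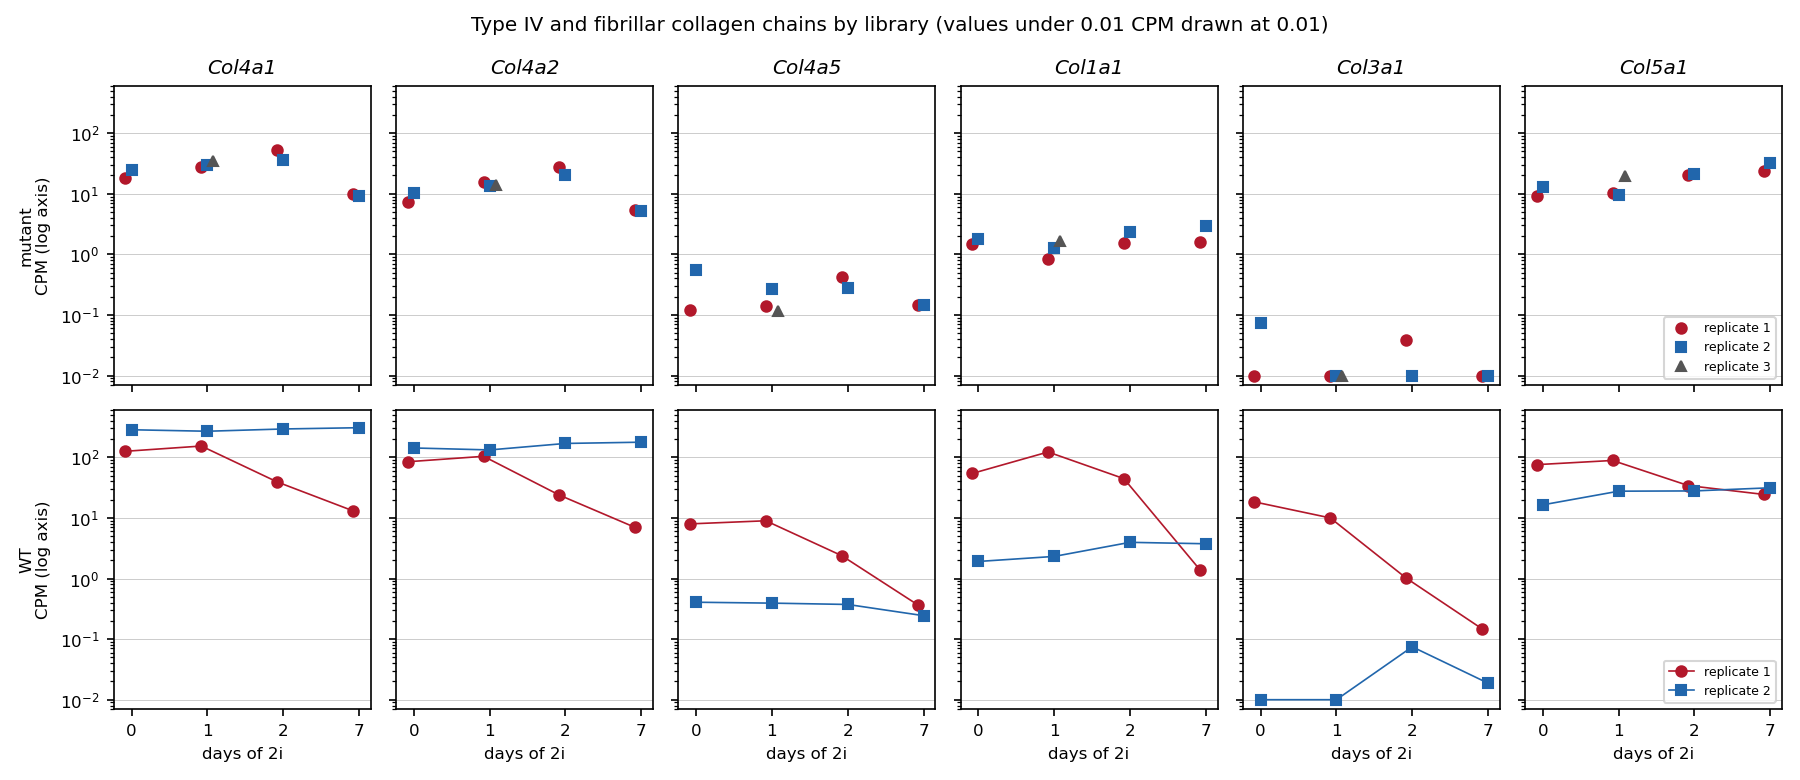
CPM on a log axis by day of 2i for Col4a1, Col4a2 and Col4a5 (type IV) and Col1a1, Col3a1 and Col5a1 (fibrillar), mutant row above WT row. Points are libraries, values under 0.01 CPM are drawn at 0.01, and lines join WT libraries of the same number. Col4a1 stays at 269.5 to 308 CPM in WT replicate 2, while Col1a1 is high in WT replicate 1 alone, with 54.2, 123 and 44.5 CPM at days 0, 1 and 2.

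Among fibrillar chains, the widest spread was in those of type I and type III collagen, the main collagens of skin, tendon and vessel walls. Col1a1 had 1.49 and 1.82 CPM in the mutant at day 0, 0.832, 1.28 and 1.65 CPM at day 1, 1.52 and 2.35 CPM at day 2, and 1.59 and 2.91 CPM at day 7. WT replicate 1 had 54.2, 123, 44.5 and 1.41 CPM at days 0, 1, 2 and 7, and WT replicate 2 had 1.91, 2.32, 3.96 and 3.75 CPM. At days 0 to 2 both WT libraries were above every mutant library of that day, by a small margin in replicate 2, and at day 7 WT replicate 1 had the lowest value of that day. Col1a1 made up 2.84 to 7.97% of fibrillar CPM per kilobase in mutant libraries, against 35.4, 49.7 and 47.2% in WT replicate 1 at days 0, 1 and 2. On average it was 10.5-fold lower in the mutant (log2 fold change −3.39 ± 0.77, edgeR adjusted p = 0.0142). The call was lost, at an adjusted p of up to 0.0573, without mutant replicate 1 of day 0, 2 or 7 or replicate 2 of day 0, and at 0.0932 without WT replicate 1 of days 0 and 1 together, where the difference was −1.23. Without WT replicate 1 of day 0, 1 or 2 alone it stayed called, at −2.42, −2.20 and −2.73 (edgeR adjusted p of 0.0299 to 0.0388), and with the term pairing the WT libraries it was −2.78.

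Col1a2, the partner chain of Col1a1 in type I collagen, had 0.0803 and 0.0365 CPM in the mutant at day 0, 0.647, 0.248 and 1.32 CPM at day 1, 0.508 and 1.05 CPM at day 2, and 1.15 and 0.763 CPM at day 7. Its WT values were 9.73, 9.70, 4.93 and 0.666 CPM in replicate 1 and 0.237, 0.628, 0.336 and 0.524 CPM in replicate 2. The mutant day 7 values were thus above its day 0 values, while in WT replicate 1 day 7 was the lowest day. The average difference was −2.56 ± 0.77 on the log2 scale (edgeR adjusted p = 0.0453), and it stayed past the threshold after 3 of the 17 single omissions, those of WT replicate 2 of day 0, 1 or 2. The other 14 omissions took the adjusted p to as high as 0.190. The difference was −1.47 without WT replicate 1 of day 0, −1.80 without that of day 1, −1.82 without that of day 2 and −0.71 without those of days 0 and 1 together. The call was lost with the replicate number as a block (−2.15, edgeR adjusted p = 0.0587) and kept with the term pairing the WT libraries (−1.83, edgeR adjusted p = 0.0145). Col3a1 had 6 counts in the 9 mutant libraries and 0 in 7 of them. WT replicate 1 had 1098, 594, 52 and 8 Col3a1 counts at days 0, 1, 2 and 7 and WT replicate 2 had 0, 0, 4 and 1. Its edgeR adjusted p was 0.0389 on average, with no fold given because mutant groups were at 0, and 14 of 17 single omissions ended that call, as did the term pairing the WT libraries (edgeR adjusted p = 0.0536). The omission that left the highest adjusted p, 1.00, was WT replicate 1 of day 0 or of day 1. Over the 17 libraries the r between Col1a1 and Col1a2 was 0.83, between Col1a1 and Col4a5 0.931 and between Col1a1 and Col4a1 0.358.

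The minor chains of type V and type XI collagen, which nucleate fibrils and set their width, were expressed in both genotypes. Col5a1 had 9.27 and 12.8 CPM in the mutant at day 0, 10.4, 9.41 and 19.4 CPM at day 1, 20.6 and 20.8 CPM at day 2, and 24.1 and 32.2 CPM at day 7. The WT had 75.7, 88.8, 34.1 and 24.4 CPM in replicate 1 and 16.4, 27.6, 27.9 and 31.4 CPM in replicate 2. The groups did not overlap at days 0 to 2 and overlapped at day 7. The average difference was −1.20 ± 0.30 (log2, 2.29-fold lower in the mutant, edgeR adjusted p = 0.0223). The call was lost without mutant replicate 1 of day 0, 2 or 7 or replicate 2 of day 2, with an adjusted p of up to 0.0662, and without WT replicate 1 of days 0 and 1 together the difference was −0.55 (edgeR adjusted p = 0.0654).

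Col5a2 was the fibrillar chain whose genotype call did not depend on any single library. It had 0.231 to 0.985 CPM in the 9 mutant libraries. WT replicate 1 had 5.64, 6.46, 2.42 and 0.851 CPM at days 0, 1, 2 and 7 and WT replicate 2 had 0.812, 1.81, 1.75 and 1.91 CPM. At days 1, 2 and 7 both WT libraries were above the mutant libraries of that day, and at day 0 WT replicate 2 was just below them. The average difference was −2.17 ± 0.43 (log2, 4.51-fold lower, edgeR adjusted p = 0.00717), with at most 0.0283 after leaving out any library and −1.38 without WT replicate 1 of days 0 and 1. Col11a1 had 1.24 to 9.16 CPM in mutant libraries and 3.08 to 31.2 CPM in WT libraries, its highest value again in WT replicate 1 of day 1. Its average difference was −1.24 ± 0.35 (log2, edgeR adjusted p = 0.0360), and it remained called after 5 of 17 omissions, those of WT replicate 2 of any day and of mutant replicate 2 of day 0. The Col11a1 difference was −0.62 without WT replicate 1 of days 0 and 1 (edgeR adjusted p = 0.178). Col2a1, the cartilage fibril chain, had 2.88 to 10.4 CPM in mutant and 4.99 to 22.3 CPM in WT libraries. Its difference of −0.68 ± 0.18 (log2, edgeR adjusted p = 0.0284) was the smallest of the fibrillar calls, and 11 of 17 omissions took it to an adjusted p of up to 0.0747. The omissions that did not were those of WT replicate 2 of days 0 and 1, WT replicate 1 of days 2 and 7 and mutant replicates 1 and 3 of day 1.

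Col5a3, another type V chain, differed within the WT in the other direction from the type I chains. It had 4.25 to 12.4 CPM in mutant libraries of days 0 to 2 and 0.998 and 1.27 CPM in those of day 7. The WT had 1.78, 1.11, 0.900 and 0.925 CPM in replicate 1 and 17.6, 15.5, 9.48 and 4.72 CPM in replicate 2 at days 0, 1, 2 and 7, so the mutant lay between both at every day. It did not pass the test on average (−0.52 ± 0.59, edgeR adjusted p = 0.627). Of the 11 fibrillar chains 10 were tested and 7 were called lower in the mutant on average. The other 3 tested, Col5a3, Col11a2 and Col27a1, were not called. The median log2 difference was −1.22 over the 10 fibrillar chains and −2.93 over the 4 type IV chains, against −0.03 over all 15365 genes. The lists were chosen with earlier results known, so these medians are descriptions.

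To set both classes side by side in each library, CPM per kilobase of exon was summed over the type IV chains and over the fibrillar chains. The type IV sum was 3.57 and 4.89 in the mutant at day 0, 6.05, 6.07 and 6.71 at day 1, 11.3 and 7.88 at day 2, and 2.18 and 2.03 at day 7. The sum in WT replicate 1 was 31.1, 38.0, 9.27 and 2.88 at days 0, 1, 2 and 7 and in WT replicate 2 it was 59.9, 56.2, 65.0 and 68.2. Col4a1 and Col4a2 made up 98.0 to 99.6% of it in mutant and 95.3 to 99.9% in WT libraries. The fibrillar sum was 3.45 and 4.89 in the mutant at day 0, 4.46, 4.20 and 5.87 at day 1, 5.59 and 5.69 at day 2, and 4.68 and 5.56 at day 7. It was 23.3, 37.6, 14.4 and 5.04 in WT replicate 1 and 6.30, 8.61, 7.83 and 7.08 in WT replicate 2. The high type IV sums were in both WT libraries of days 0 and 1 and in WT replicate 2 of days 2 and 7, and the high fibrillar sums in WT replicate 1 of days 0 to 2.

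The ratio of type IV to fibrillar sums was 1.04 and 1.00 in the mutant at day 0, 1.35, 1.45 and 1.14 at day 1, 2.03 and 1.38 at day 2, and 0.466 and 0.364 at day 7. It was 1.33, 1.01, 0.645 and 0.571 in WT replicate 1 and 9.50, 6.53, 8.30 and 9.64 in WT replicate 2 at days 0, 1, 2 and 7. In the mutant the ratio was lowest at day 7. In the WT the replicates of a day differed by more than the genotype means did. On the log2 scale the group means were 0.03 ± 0.04, 0.39 ± 0.18, 0.74 ± 0.39 and −1.28 ± 0.25 in the mutant at days 0, 1, 2 and 7, and 1.83 ± 2.00, 1.36 ± 1.90, 1.21 ± 2.61 and 1.23 ± 2.88 in the WT (SD, n = 3 for the mutant at day 1 and n = 2 elsewhere). The mutant minus WT difference in this ratio was −1.81, −0.97, −0.47 and −2.51, each smaller than the WT SD of that day. It turned positive, to 0.37 and 1.38, when WT replicate 2 of day 1 or of day 2 was left out. No test was made on this sum of chosen genes. The type IV share of all collagen CPM per kilobase was 3.24 to 13.2% in mutant libraries, 5.83 to 25.5% in WT replicate 1 and 46.1 to 65.3% in WT replicate 2.

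**Figure D3:**
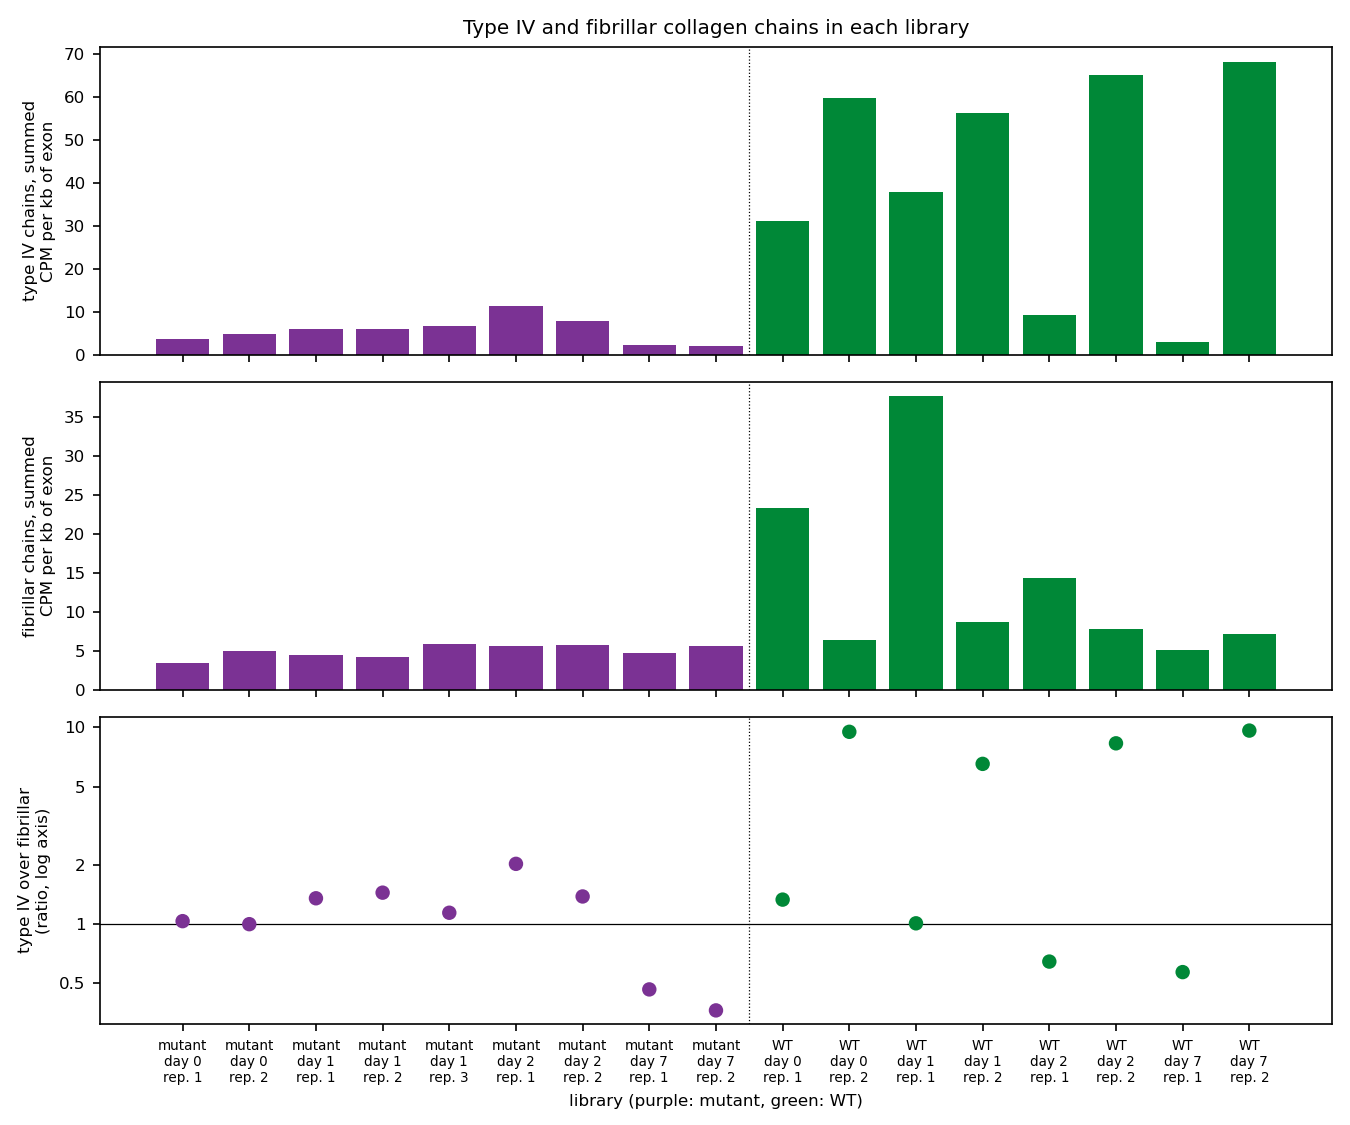
Summed CPM per kilobase of exon of the type IV chains and of the fibrillar chains, and the ratio of these sums, by day of 2i with the mutant left of the WT. Each point is a library. The type IV to fibrillar ratio is 0.364 to 2.03 in mutant libraries, 0.571 to 1.33 in WT replicate 1 and 6.53 to 9.64 in WT replicate 2.

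Over all 38 tested genes, 15 differed between the genotypes on average over the 4 days, 14 lower and 1 higher in the mutant. The background in this comparison was 12.8% of the 15365 genes tested, called in either direction at an edgeR adjusted p under 0.05. Calls on the average treat WT libraries of different days as independent, although their numbers paired them across days, so both counts may be too high. The median log2 difference was −0.71 over the 38 collagen genes. By class the calls were 3 of 4 type IV chains, 7 of 10 fibrillar chains, 1 of 6 type VI chains, 1 of 8 fibril-associated chains, 1 of 4 transmembrane collagens, Col7a1 and Col26a1, and none of the 2 multiplexins or the 2 type VIII chains. The count was 5 to 16 when 1 library was left out. It fell to 9 without WT replicate 1 of day 0 or of day 1 or without mutant replicate 2 of day 7. It fell to 7 without mutant replicate 1 or 2 of day 2 and to 5 without mutant replicate 1 of day 0 or of day 7. Without WT replicate 1 of days 0 and 1 together 7 genes were called: Col4a1, Col4a2, Col5a2, Col6a3, Col7a1, Col23a1 and Col26a1. Thus Col1a1, Col1a2, Col2a1, Col3a1, Col5a1, Col11a1, Col4a5 and Col9a2 were not called without these 2 libraries. For Col4a1, Col4a2 and Col26a1 the omitted libraries were the lower WT libraries of their day, so that omission could not test their calls.

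By single days, no collagen gene was called in the mutant against the WT at day 0, 1, 2 or 7, where the edgeR background was 0.28%, 0.417%, 0.0716% and 0.0976% of genes. At an unadjusted p under 0.05 there were 13, 16, 3 and 9 collagen genes, against 2028, 2216, 928 and 1465 of all genes tested. DESeq2 called 4, 11, 0 and 4 collagen genes. Its counts over all genes are not given here, and the edgeR background does not apply to them. The smallest edgeR adjusted p-values were 0.169 for Col4a2 at day 0, 0.106 for Col7a1 at day 1, 0.668 for Col6a3 at day 2 and 0.214 for Col23a1 at day 7. Leaving out WT replicate 2 of day 1 gave 6 calls at day 1. With a term for the number that pairs the WT libraries across days, edgeR called 5, 11, 0 and 1 collagen genes. That fit called 576, 695, 42 and 191 of all 15365 genes at days 0, 1, 2 and 7. In that paired fit the log2 difference of Col4a1 was −3.27, −2.92 and −3.14 at days 0, 1 and 7 (edgeR adjusted p = 0.0159, 0.0119 and 0.0351). The pairing term takes the difference between the WT series out of the error. P-values of that fit therefore do not cover this difference and can be too small for a comparison of genotypes. Medians over the 38 genes were −0.87, −0.82, −0.59 and −0.81 at days 0, 1, 2 and 7, against −0.05, −0.05, −0.01 and −0.03 over all genes.

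**Figure D4:**
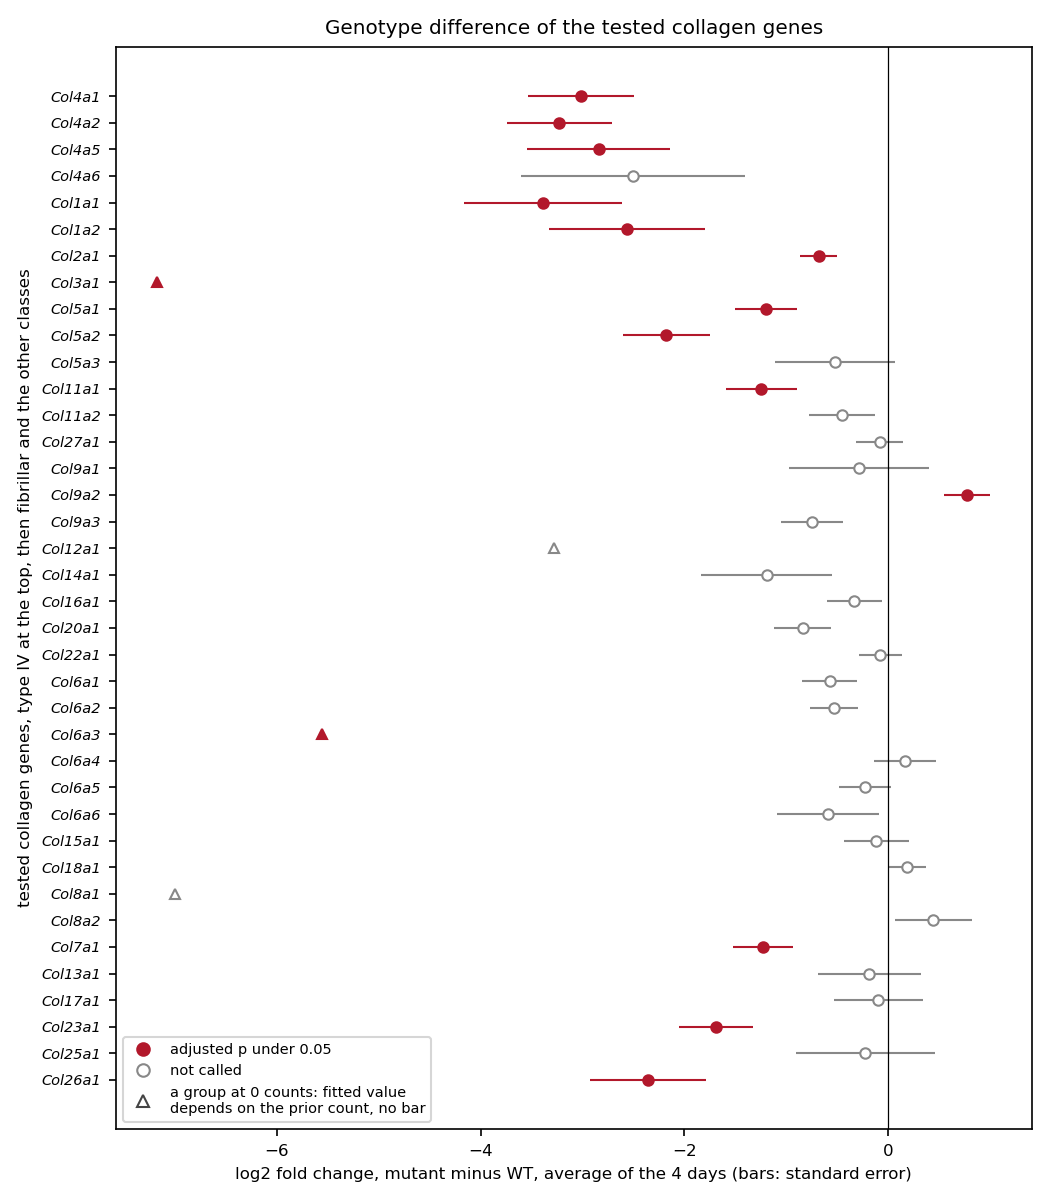
Log2 difference, mutant minus WT averaged over the 4 days, for the 38 tested collagen genes by class, with bars of 1 SE from edgeR and called genes filled. Triangles without a bar mark Col3a1, Col6a3, Col8a1 and Col12a1, which had 0 counts in all libraries of at least 1 group and whose fitted values depend on the prior count. Most genes lie left of 0, with Col4a1 at −3.01, Col1a1 at −3.39 and Col9a2 at 0.78.

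Outside the type IV and fibrillar classes, Col6a3, Col23a1, Col7a1 and Col26a1 were called lower in the mutant on average. Col6a3, a chain of the beaded filaments around cells, had 0 counts in 7 of 9 mutant libraries and 2 counts in each of the other 2. In the WT it had 22 and 18 counts at day 0, 18 and 5 at day 1, 14 and 38 at day 2, and 4 and 36 at day 7. No mutant library reached the lowest WT library (at most 0.0390 CPM in the mutant, at least 0.0740 CPM in the WT). Its edgeR adjusted p was 0.00417, at most 0.0162 after any single omission. Col6a3 was not confined to 1 of the WT series, since the libraries of WT replicates 1 and 2 had 58 and 97 counts.

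Col23a1, a transmembrane collagen, had 0.0727 to 0.739 CPM in mutant and 0.370 to 1.68 CPM in WT libraries, a difference of −1.69 ± 0.37 (log2, edgeR adjusted p = 0.0111) that held after any single omission, with at most 0.0371. Col7a1, which anchors the epidermal basement membrane to the dermis, had 5.78 and 7.86 CPM in the mutant at day 0, 3.28, 2.76 and 2.56 CPM at day 1, 3.40 and 2.99 CPM at day 2, and 1.77 and 2.00 CPM at day 7. In WT replicate 1 it had 24.3, 20.3, 6.45 and 2.70 CPM and in WT replicate 2 8.56, 4.36, 3.92 and 3.97 CPM at days 0, 1, 2 and 7. Both WT libraries were above the mutant libraries at every day. The difference was −1.22 ± 0.30 (log2, edgeR adjusted p = 0.0182), with an adjusted p of up to 0.0564 without mutant replicate 1 of day 0 or 7 or replicate 2 of day 2. The Col7a1 difference was −0.61 without WT replicate 1 of days 0 and 1 (edgeR adjusted p = 0.0447).

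Col26a1, a collagen of developing testis and ovary in mouse, had 0.120 and 0.292 CPM in the mutant at day 0, 0.277, 0.371 and 0.971 CPM at day 1, 0.976 and 2.02 CPM at day 2, and 2.81 and 4.40 CPM at day 7. The WT had 0.904, 1.21, 0.860 and 3.22 CPM in replicate 1 and 6.67, 4.98, 8.88 and 11.5 CPM in replicate 2. Levels at day 7 were the highest of each series, and WT replicate 2 was above every mutant library. The average difference was −2.35 ± 0.57 (log2, 5.11-fold lower, edgeR adjusted p = 0.0187). It was lost at up to 0.0619 without mutant replicate 1 of day 0, 2 or 7, and was −2.73 without WT replicate 1 of days 0 and 1. Without WT replicate 2 of day 2 it was −1.73 (edgeR adjusted p = 0.0497). Col9a2, a fibril-associated chain of cartilage, was the 1 gene called higher in the mutant (0.78 ± 0.23, 1.72-fold, edgeR adjusted p = 0.0395). It had 13.4 to 79.2 CPM in mutant and 9.29 to 37.2 CPM in WT libraries, the ranges overlapped, and 12 of 17 omissions ended the call (up to 0.0977). It was kept without WT replicate 2 of day 1, WT replicate 1 of day 7, mutant replicate 2 or 3 of day 1 or mutant replicate 1 of day 2.

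A pair of further chains were nearly confined to WT replicate 1 but were not called, although other settings called them. Col8a1, a chain of the hexagonal network under the corneal endothelium, had 2 counts in all 9 mutant libraries, 212, 302, 42 and 4 counts in WT replicate 1 and 4 counts in all of WT replicate 2 (edgeR adjusted p = 0.0611). Col8a1 was called lower in the mutant with the replicate number as a block (edgeR adjusted p = 0.00172) and with the term pairing the WT libraries (0.0124). Col12a1, a fibril-associated chain of dense connective tissue, had at most 0.124 CPM in mutant libraries, 6.87, 15.4, 3.52 and 0 CPM in WT replicate 1 and at most 0.135 CPM in WT replicate 2 (edgeR adjusted p = 1.00). Col12a1 was called lower by DESeq2 (adjusted p = 0.0156). The transmembrane chain Col13a1 had the opposite distribution within the WT, with 1.74 to 6.02 CPM in the mutant, 0.603 to 2.46 CPM in WT replicate 1 and 3.56 to 7.99 CPM in WT replicate 2. It was not called (−0.18 ± 0.50, edgeR adjusted p = 0.867). Col18a1 did not pass either, at 0.19 ± 0.18 (edgeR adjusted p = 0.546).

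During 7 days of 2i, the collagens called lower at day 7 than at day 0 in both genotypes were 4 type VI chains (Col6a2, Col6a4, Col6a5 and Col6a6), Col18a1 and Col8a2. In the mutant 6 genes were called at day 7 against day 0, all lower, with a background of 14.2% of genes. In the WT 9 were called, 8 lower and 1 higher, with a background of 12.7%. When the libraries of the compared groups alone were fitted, all 9 WT calls were lost, at edgeR adjusted p-values of 0.0679 to 0.210. The median log2 change at day 7 was −1.19 over the collagen genes in the mutant (−1.14 with genes whose group was at 0 set to a floor of 3 counts per group) and −1.29 in the WT, against 0 and −0.01 over all genes. Within a genotype, the comparisons of days 1, 2 and 7 share the day 0 libraries. Col4a1 and Col4a2 were not called at any day: at day 7 their log2 change was −1.15 ± 1.02 and −0.75 ± 1.00 in the mutant and −0.35 ± 1.00 and −0.30 ± 0.97 in the WT (edgeR adjusted p of 0.508 to 0.866). Col1a1 was not called either, at 0.44 ± 1.50 in the mutant and −3.44 ± 1.58 in the WT (edgeR adjusted p = 0.887 and 0.167).

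Col6a5, a long type VI chain related to Col6a3, was the first to be called. It had 13.1 and 6.46 CPM in the mutant at day 0, 1.20, 1.82 and 1.36 CPM at day 1, 0.390 and 0.809 CPM at day 2, and 0.185 and 0.182 CPM at day 7. In the WT it had 5.83 and 6.67 CPM at day 0, 1.31 and 0.628 CPM at day 1, 1.02 and 0.597 CPM at day 2, and 0.740 and 0.450 CPM at day 7. Every library with 2i was below every day 0 library, in both genotypes. In the mutant the log2 change was −2.74 ± 0.46, −4.02 ± 0.57 and −5.72 ± 0.63 at days 1, 2 and 7, with edgeR adjusted p-values of 0.0130, 0.00339 and 0.000187. The WT log2 changes at days 2 and 7 were −2.95 ± 0.54 and −3.39 ± 0.55 (edgeR adjusted p = 0.0175 and 0.00291), and at day 1 the WT adjusted p was 0.0682. The calls of the mutant at days 2 and 7 and of the WT at day 7 held without any single library. The mutant day 1 call was lost without mutant replicate 1 of day 0, at 0.220, or replicate 1 or 3 of day 1, and with the replicate number as a block, at 0.0521. Without mutant replicate 1 of day 0 the mutant changes were −2.13, −3.41 and −5.08 at days 1, 2 and 7, and without mutant replicate 2 of day 2 the day 2 change was −4.64. The WT day 2 call was lost without WT replicate 2 of day 0, at 0.0542, or of day 2, at 0.164, and at 0.365 in the fit of the compared groups alone.

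Col6a4 and Col6a6 lie beside Col6a5 on mouse chromosome 9 (Col6a6 chr9:105687809-105828160, Col6a5 chr9:105856078-105960643 and Col6a4 chr9:105989454-106096783, all on the minus strand) and also fell. Col6a4 had 5.44 and 3.76 CPM in the mutant at day 0, 1.15, 1.11 and 1.84 CPM at day 1, 1.21 and 1.52 CPM at day 2, and 0.776 and 1.02 CPM at day 7. In the WT it had 3.22 and 6.14, 1.21 and 1.59, 0.860 and 1.57, and 0.185 and 1.03 CPM at those days. Its day 7 log2 change was −2.36 ± 0.65 in the mutant and −2.94 ± 0.67 in the WT (edgeR adjusted p = 0.0303 and 0.0140). The mutant call was lost, at up to 0.195, without either mutant library of day 0 or of day 7, and the WT call, at up to 0.0670, without WT replicate 2 of day 0 or replicate 1 of day 7. The WT change of Col6a4 was −2.18 without WT replicate 1 of day 7 and −4.64 without WT replicate 2 of day 7. Col6a6 had 0.803 and 0.949 CPM in the mutant at day 0, 0.185, 0.206 and 0.155 CPM at day 1, 0.117 and 0.0809 CPM at day 2, and 0.0370 and 0 CPM at day 7. In the WT it had 0.469 and 1.45, 0.303 and 0.275, 0.117 and 0.187, and 0 and 0.0749 CPM at those days. Its adjusted p at day 7 was 0.00791 in the mutant and 0.0150 in the WT by edgeR, with no fold given because so few counts remained. The mutant call was lost without mutant replicate 2 of day 7 (0.0796), and the WT call without WT replicate 2 of day 0 or replicate 1 of day 7 (up to 0.0797).

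Col6a2 and Col6a1, the core type VI chains that pair with a long chain, were also lower at day 7. Col6a2 had 1.16 and 1.57 CPM in the mutant at day 0, 0.970, 0.825 and 0.388 CPM at day 1, 0.742 and 0.869 CPM at day 2, and 0.111 and 0.182 CPM at day 7. The WT had 1.99 and 1.93, 1.72 and 1.92, 0.587 and 0.597, and 0.259 and 0.225 CPM of Col6a2 at those days. Its day 7 log2 change was −3.20 ± 0.53 in the mutant and −3.01 ± 0.51 in the WT (edgeR adjusted p = 0.00181 and 0.00368), and both calls held without any single library, while the WT call was among those lost in the fit of the compared groups alone (0.0952). Col6a1 (−2.03 ± 0.57, edgeR adjusted p = 0.0351) was called in the WT, where it had 0.444 and 0.375 CPM at day 7, against 2.38 and 0.981 CPM at day 0. That call was lost, at up to 0.282, without WT replicate 1 of day 0 or either WT library of day 7, and the change was −1.26 without WT replicate 1 of day 0. In the mutant Col6a1 had 0.591 and 0.400 CPM at day 7, against 0.361 and 0.657 CPM at day 0. The r over the 17 libraries was 0.881 between Col6a5 and Col6a6, 0.764 between Col6a4 and Col6a5 and 0.672 between Col6a1 and Col6a2.

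Col18a1, the basement membrane multiplexin, had 651 and 688 CPM in the mutant at day 0, 325, 397 and 319 CPM at day 1, 343 and 223 CPM at day 2, and 173 and 192 CPM at day 7. In the WT it had 601 and 357 CPM at day 0, 422 and 249.9 CPM at day 1, 351 and 182 CPM at day 2, and 209.7 and 117 CPM at day 7. It declined through the days in both WT series, with replicate 2 below replicate 1 at each day. The day 7 change was −1.87 ± 0.38 in the mutant (3.67-fold lower, edgeR adjusted p = 0.00640) and −1.55 ± 0.38 in the WT (2.93-fold lower, edgeR adjusted p = 0.0196). The mutant call was lost without mutant replicate 1 or 2 of day 7 (0.0696 and 0.0516) and the WT call without WT replicate 1 of day 0 (0.150) or replicate 2 of day 7 (0.147). Col8a2, the second type VIII chain, had 2.53 and 3.58 CPM in the mutant at day 0, 0.785, 2.06 and 0.621 CPM at day 1, 0.508 and 0.283 CPM at day 2, and 0.0739 and 0.145 CPM at day 7. In the WT it had 1.98 and 1.79, 1.14 and 0.392, 0.508 and 0.149, and 0.111 and 0.0749 CPM at those days. Its log2 change was −4.77 ± 0.86 in the mutant and −4.31 ± 0.85 in the WT (edgeR adjusted p = 0.00312 and 0.00723). The mutant call held without any single library, with at most 0.04995, and the WT call was lost without either WT library of day 7, at up to 0.0594.

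**Figure D5:**
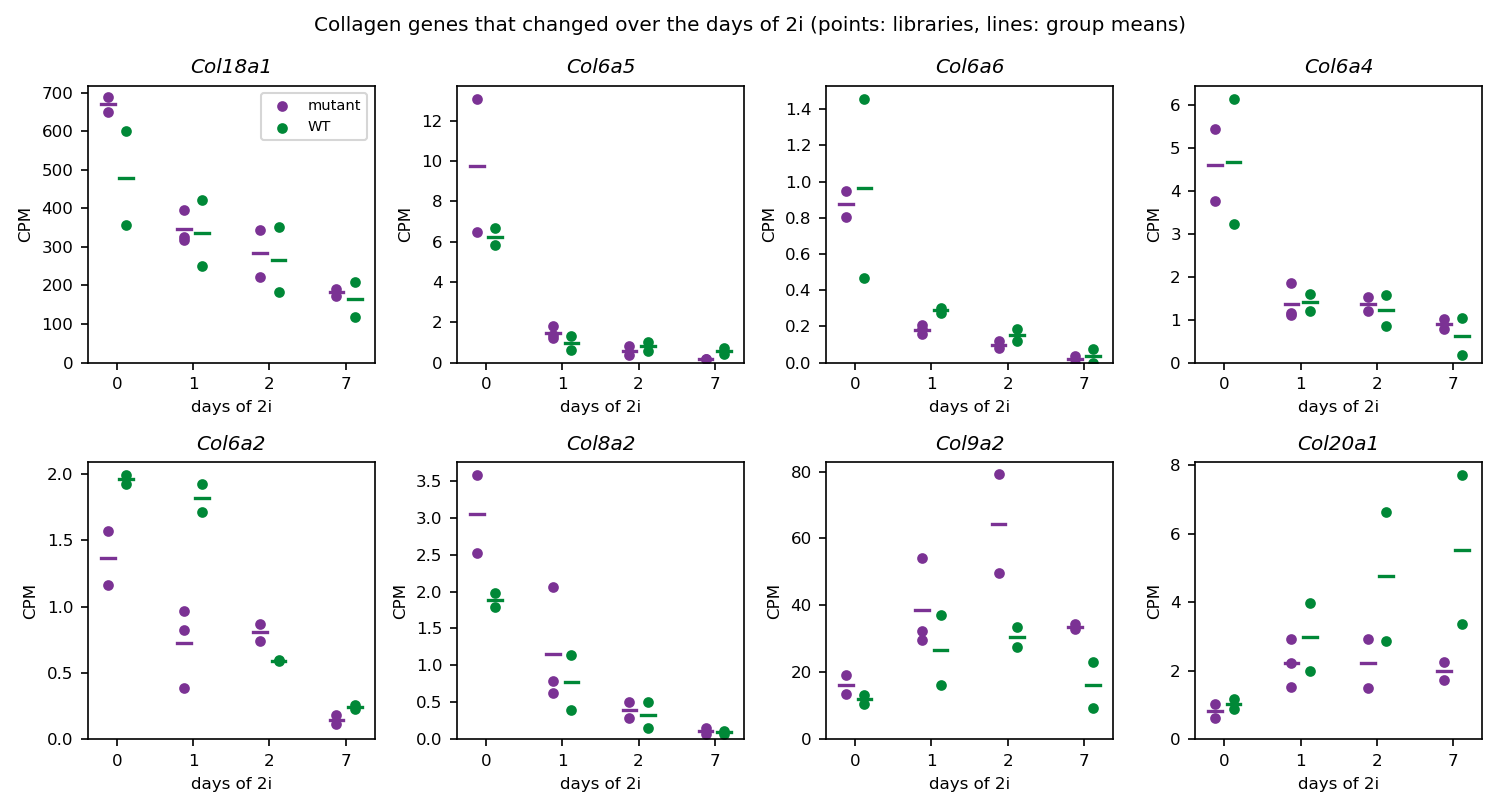
CPM by day of 2i for Col18a1, Col6a5, Col6a6, Col6a4, Col6a2, Col8a2, Col9a2 and Col20a1, with the mutant left of the WT at each day. Points are libraries and short lines are group means. Col18a1 is at 173 and 192 CPM in the mutant at day 7 against 651 and 688 CPM at day 0, and Col20a1 at 3.35 and 7.72 CPM in the WT at day 7 against 0.888 and 1.17 CPM at day 0.

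Col9a2 and Col20a1 were the collagens called higher with 2i by edgeR, but more moved upward. In the mutant 22 of the 38 tested genes had a log2 change above 0 at day 2 and 10 at day 7. Col27a1 had 3.07 and 1.79 CPM in the mutant at day 0 and 8.32 and 7.76 CPM at day 2. DESeq2 called it higher there (1.72 on the log2 scale, adjusted p = 0.00640), and at day 7 it had 3.25 and 3.20 CPM. Col9a2 had 49.6 and 79.2 CPM in the mutant at day 2, against 13.4 and 19.2 CPM at day 0 (1.98 ± 0.48 on the log2 scale, edgeR adjusted p = 0.0425). At days 1 and 7 the mutant had 54.0, 29.7 and 32.3 CPM and 34.4 and 32.9 CPM of Col9a2. The call was lost without any mutant library other than replicate 1 of day 1, at up to 0.353 without replicate 1 of day 0. The WT had 10.4 and 13.3, 16.3 and 37.2, 27.5 and 33.5, and 23.1 and 9.29 CPM at days 0, 1, 2 and 7, with no call. Col20a1, a fibril-associated chain, rose in the WT at day 7 (2.43 ± 0.60, edgeR adjusted p = 0.0204), with 0.888 and 1.17 CPM at day 0, 1.99 and 3.98 CPM at day 1, 2.87 and 6.64 CPM at day 2 and 3.35 and 7.72 CPM at day 7. The call was lost, at up to 0.146, without either WT library of day 0 or replicate 2 of day 7, and the change was 1.71 without WT replicate 2 of day 7. In the mutant Col20a1 had 0.602 and 1.02 CPM at day 0, 2.91, 1.53 and 2.23 CPM at day 1, 1.50 and 2.93 CPM at day 2, and 1.72 and 2.25 CPM at day 7. Col7a1 fell in the WT at day 7 (−2.30 ± 0.62, edgeR adjusted p = 0.0304), a call lost without WT replicate 1 of day 0 (−1.36, edgeR adjusted p = 0.258) or either library of day 7.

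In the mutant no collagen gene was called higher at day 7 by edgeR, but other settings called some. Col26a1 had 2.81 and 4.40 CPM in the mutant at day 7, against 0.120 and 0.292 CPM at day 0. That difference of 4.10 ± 1.29 on the log2 scale had an edgeR adjusted p of 0.0513. Col26a1 was called higher by DESeq2 (4.10, adjusted p = 0.00154), by edgeR with the replicate number as a block (4.34, 0.00272), with the term pairing the WT libraries (4.10, 0.000659) and without WT replicate 1 of days 0 and 1 (4.10, 0.0236). With the term pairing the WT libraries edgeR also called Col1a2 (adjusted p = 0.0216), Col11a1 (1.69 on the log2 scale) and Col20a1 (1.28, adjusted p = 0.0447) higher in the mutant at day 7. DESeq2 called Col1a2 as well (adjusted p = 0.0298). Without WT replicate 1 of days 0 and 1 edgeR called Col1a2, Col11a1 and Col5a1 (1.35 on the log2 scale). Col1a2 had 1.15 and 0.763 CPM in the mutant at day 7, against 0.0803 and 0.0365 CPM at day 0.

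At the earlier days few collagen genes were called by edgeR. In the mutant there was 1 at day 1 (Col6a5, background 1.41%) and 2 at day 2 (Col6a5 and Col9a2, background 2.92%). In the WT there was none at day 1 (background 0.202%) and 1 at day 2 (Col6a5, background 2.16%). At WT day 1 there were 5 collagen genes at an unadjusted p under 0.05, beside 1293 of all genes tested. DESeq2 called 1 there, and its count over all genes is not given here. The edgeR counts depend on how the spread within the WT is treated. With the term for the number that pairs the WT libraries, edgeR called 3, 9 and 15 collagen genes at days 1, 2 and 7 in the mutant and 1, 6 and 15 in the WT. Over all 15365 genes that fit called 821, 1331 and 3857 in the mutant and 237, 1489 and 4007 in the WT. The collagen counts rose together with the counts over all genes. Col18a1 (−0.95 at day 1 and −1.24 at day 2), Col6a4 and Col6a5 were among the mutant genes called at day 1 in that paired fit. Without WT replicate 1 of days 0 and 1, the day 7 count moved up in the mutant and down in the WT. With single libraries left out, the day 7 count was 3 to 9 in the mutant and 4 to 11 in the WT.

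Whether the genotypes responded differently was tested as the day 7 change in the mutant minus that in the WT. No gene of the 15365 passed in edgeR, a background of 0%, so no collagen gene did. At an unadjusted p under 0.05 there were 4 collagen genes and 1178 genes in all, and DESeq2 called no collagen gene. The smallest adjusted p among collagen genes was 0.547, for Col6a5, whose day 7 changes differed by −2.33 ± 0.75 on the log2 scale. Of the day 7 calls, Col6a5, Col6a2, Col6a4, Col6a6, Col18a1 and Col8a2 passed in both genotypes, and Col6a1, Col7a1 and Col20a1 passed in the WT alone. A difference between genotypes in those 3 was not shown by the interaction test.

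The genes that fold, process and bind collagens were examined from lists chosen with earlier results known. Of 23 tested genes of collagen folding and export, 3 were lower and 1 higher in the mutant on average by edgeR, where 12.8% of all genes were called. Serpinh1, the collagen-specific chaperone, was 3.40-fold lower (−1.77 ± 0.28, edgeR adjusted p = 0.00213). It had 21.0 to 73.8 CPM in mutant libraries. In WT replicate 1 it had 157, 177, 71.8 and 37.8 CPM at days 0, 1, 2 and 7 and in WT replicate 2 117, 138, 185 and 153 CPM. At days 0 and 1 both WT libraries were above the mutant libraries, and at days 2 and 7 WT replicate 1 lay between them. P3h2, a prolyl 3-hydroxylase, and P4ha2, a prolyl 4-hydroxylase subunit, were lower (−2.77 and −1.17). Colgalt1, which adds galactose to collagen hydroxylysine, was higher (0.46 ± 0.10, edgeR adjusted p = 0.0126). P4ha1, the main prolyl 4-hydroxylase subunit, did not pass (0.15 ± 0.16, edgeR adjusted p = 0.607).

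Of 13 tested genes of collagen processing and crosslinking, 5 were lower and 1 higher in the mutant on average, against the same background of 12.8%. Bmp1, the protease that trims the C-terminal ends of fibrillar procollagens, had 1.53 to 3.37 CPM in mutant libraries. In WT replicate 1 it had 72.0, 60.1, 14.7 and 1.18 CPM at days 0, 1, 2 and 7 and in WT replicate 2 it had 6.83, 5.38, 5.22 and 3.82 CPM. It was highest in the same 3 WT libraries as Col1a1, and the average difference was −2.47 ± 0.52 (edgeR adjusted p = 0.00963). The related protease gene Tll1 was higher in the mutant (1.70 ± 0.41, edgeR adjusted p = 0.0174), and the crosslinking enzyme genes Loxl1 and Loxl2 were lower (−1.05 and −1.01). Of the 6 tested collagen receptor genes none was called on average by edgeR, with 12.8% of all genes called. Of 11 fibril matrix partners only Thbs1 was lower, and of 10 matrix proteases and inhibitors Timp2, Timp3 and Mmp9 were lower.

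Among 18 genes for other basement membrane components, 4 were lower in the mutant and none higher on average by edgeR, beside 12.8% of all genes called. Sparc, which binds collagen IV and fibrillar collagens, was 1.77-fold lower (−0.83 ± 0.15, edgeR adjusted p = 0.00400), and the laminin chain Lamb1 was 1.76-fold lower (−0.81 ± 0.16, edgeR adjusted p = 0.00664). Lama3 and Lama4 were lower by −1.62 and −1.02. Lama1 (−0.62 ± 0.31, edgeR adjusted p = 0.221), Lamc1 (−0.07 ± 0.15, edgeR adjusted p = 0.825) and the linker Nid1 (−0.29 ± 0.17, edgeR adjusted p = 0.285) did not pass. In the mutant Nid1 had 587 and 608 CPM at day 7, against 72.3 and 86.1 CPM at day 0 (2.92 ± 0.37, edgeR adjusted p = 0.000433). In the WT Nid1 had 421 and 351 CPM at day 7, against 116 and 185 CPM at day 0 (1.36 ± 0.35, edgeR adjusted p = 0.0238). Of these 18 genes, 4 rose and none fell at day 7 in the mutant (background 14.2%), and 2 rose and 1 fell in the WT (background 12.7%).

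The genes most like the collagens were taken as those with the highest Pearson's r of log2(CPM + 0.1) over the 17 libraries, which share depth and groups. For Col4a1 these were Col4a2 (r = 0.993), Foxq1 (0.94), Ubash3b (0.93), Gdpd5 (0.919) and Clic5 (0.91). For Col4a2, after Col4a1, they were Gdpd5 (0.939), Glipr2 (0.933), Foxq1 (0.926) and Clic5 (0.924). Foxq1, which stands in the primitive endoderm marker list, had 0.0739 to 0.763 CPM in mutant libraries, 0.481 to 4.18 CPM in WT replicate 1 and 5.99 to 14.9 CPM in WT replicate 2. For Col1a1 they were Ccl2 (0.956), Tnc (0.949), Gdnf (0.948), Col12a1 (0.945) and Krt18 (0.943), and for Col3a1 Cav1 (0.982), Tnc (0.979), H2-M2 (0.978), Ifi202b (0.977) and Ccl2 (0.975). Ccl2 and Tnc were in both fibrillar lists, and no gene was in both a type IV and a fibrillar list.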

How the data were processed

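The deposited table holds raw read counts per gene, 1 column per library, for 20621 genes. Per the submitters' processing notes the tools included STAR and deepTools and the build was mm10. Their versions, the counting tool, its strand setting and the annotation are not given in the sources used here. In each library 87.7 to 90.6% of genes with 1 to 49 counts have an even count, so low counts move in steps of 2 and are less precise than their size implies. Reads carry no molecular identifiers, so floors (3 counts per group) cover counting error only. Groups came from the sample titles.

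The collagen genes and all gene lists were chosen with earlier results of these data known. Genes passing filterByExpr (15365, of which 38 collagen genes) were tested with edgeR 4.0.16 in R 4.3.3: TMM scaling, glmQLFit over all 17 libraries with 1 coefficient per group, glmQLFTest and Benjamini-Hochberg adjustment over all genes tested, two-sided, called at an adjusted p under 0.05. Replicates spread by a biological CV of 0.333 on common dispersion, and 9 degrees of freedom were left. SE is the size of the log2 fold change divided by the square root of F. The fit was also run on simulated data with independent libraries. That simulation lacks the likeness of WT libraries across days, so nothing is concluded from it about the average differences. DESeq2 1.42.0 was an alternative, beside other scalings, other filters, fits of the compared groups alone, replicate terms and omitted libraries. CPM are counts over TMM-scaled library sizes (TMM factors of 0.914 to 1.07), and exon lengths came from GENCODE M21 (97.5% of genes matched). Tables were built with Python 3.11.15 and pandas 2.3.3.

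Genes named were the type IV chains, 7 fibrillar chains, the most abundant gene of other classes, all called collagen genes, up to 4 called genes per related list plus 7 set by name, and the 5 nearest genes by correlation. Col5a3, Col12a1 and Col27a1 were added after their values were seen. Replicate numbers were checked as pairs by correlating deviations from group means across genes. They paired libraries of the WT across days (6 of 6 pairs of days with both correlations over 0.1, r of 0.236 to 0.744) but not of the mutant (1 of 6). Across genotypes 10 of 16 pairs passed, with r of −0.348 to 0.503, so the check did not settle pairing there. Between groups of 2 libraries both correlations are the same value by construction. The pairing of the WT therefore comes from the data and not from the labels. A change of sequence in the polymerase is not visible in gene counts, so the genotype labels were not checked against it.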

Additional observations from a re-analysis of the deposited data

Results flagged for a closer look

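In 3 collagen genes the libraries of the mutant and the WT were ordered one way at 1 day and the opposite way at another, without overlap. Only the tested collagen genes were searched, so there is no share over all genes to set beside this count. With so few libraries a group, the spread between libraries can give such orders. The count is not a result about collagens. For Col15a1, a multiplexin at low level, the log2 ratio of group means (mutant over WT) was −0.25 at day 7 and 0.39 at day 0, a difference of −0.63. At day 7 both mutant libraries and WT replicate 1 each had 6 Col15a1 counts and WT replicate 2 had 8, so the gap at that day rests on the library scaling. In the interaction test of the day 7 response its edgeR adjusted p was 0.820. For Col1a2 the ratio was 0.68 at day 7 and −6.42 at day 0, a difference of 7.10, with an edgeR adjusted p of 0.593 in the same test. For Col6a2 the ratio was −0.52, −1.32, 0.44 and −0.73 at days 0, 1, 2 and 7. The day 2 ratio was thus 0.97 above that of day 0 and 1.77 above that of day 1, and the day 7 ratio was −1.17 from that of day 2. These differences of Col6a2 were not tested.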

How the results depend on the processing

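Of 34 calls of a collagen gene in a comparison (23 distinct genes), 863 values were recomputed under other settings: 716 kept their direction and stayed past the threshold, 147 kept their direction but not the threshold, and 0 reversed. The counts of called collagen genes were 0, 0, 0, 0 and 15 for the mutant against the WT at days 0, 1, 2, 7 and on average, 1, 2 and 6 for days 1, 2 and 7 against day 0 in the mutant, 0, 1 and 9 in the WT, and 0 for the difference of the day 7 response. They were within 1.5 times of these under RLE or upper-quartile scaling and under both other low-count filters. With the replicate number as a block for all libraries, the counts were 1 for the mutant against the WT at day 1, 0 and 5 at days 1 and 2 in the mutant and 2 at day 2 in the WT, and the average gave 14. With a block that pairs the WT libraries only, they were 5, 11 and 1 against the WT at days 0, 1 and 7, 3, 9 and 15 over days in the mutant and 1, 6 and 15 in the WT. Over all 15365 genes that block called 576, 695 and 191 against the WT at days 0, 1 and 7. At day 7 against day 0 it called 3857 in the mutant and 4007 in the WT. DESeq2 gave 4, 11 and 4 against the WT at days 0, 1 and 7, 5, 8 and 13 over days in the mutant and 1 and 6 at days 1 and 2 in the WT. Fits of the compared groups alone gave 2 against the WT at day 1, 8, 15 and 22 over days in the mutant and 0 at days 2 and 7 in the WT. This alternative does not apply to the average. Counts over all genes for DESeq2 and for the fits of the compared groups are not given here. Their collagen counts are thus not set against a background. Without WT replicate 1 of days 0 and 1 the average gave 7, the mutant 2, 4 and 13 over days and the WT 5 at day 7. Calls over all genes also moved under several of these settings, so a changed count is not a result about collagens. The cause of these changes was not tested. With each library left out in turn, counts were 0 to 1, 0 to 6, 0 to 0 and 0 to 1 against the WT by day, 5 to 16 on average, 0 to 1, 1 to 3 and 3 to 9 over days in the mutant, 0 to 0, 0 to 1 and 4 to 11 in the WT, and 0 to 0 for the difference.

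The log2 type IV to fibrillar difference was −3.22 to −0.39, −2.32 to 0.37, −2.31 to 1.38 and −4.55 to −0.47 at days 0, 1, 2 and 7 with single libraries left out, its sign turning without WT replicate 2 of day 1 or of day 2. Other ways of summing, 1 of them without Col4a1, Col4a2, Col1a1 and Col1a2, moved it by less than the larger group SD of that day. That was the WT SD, 2.00, 1.90, 2.61 and 2.88 at days 0, 1, 2 and 7. So wide a limit does not show that the difference is stable to the way of summing. With 2 or 3 libraries a group and low counts in steps of 2, counting limits the precision of collagens under 1 CPM.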
